A study of Homo sapiens with 8 samples.

Results

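SK-Mel5, an established human melanoma cell line, was compared with a short hairpin RNA (shRNA) named shp300 and with a scrambled control shRNA. The 4 arrays were those labelled SK-Mel5 shp300 (2 arrays) and SK-Mel5 scrambled (2 arrays), out of 8 in the series. The other 4 hold a second melanoma line, WM983B, in the same 2 conditions. In all groups 250000 cells received 500 µL of pLKO1 lentivirus with polybrene at 8 µg/mL, and puromycin at 1.5 µg/mL was applied from 48 h after transduction, so the scrambled cells carry a vector and were selected as well. Total RNA was biotin-labelled and hybridised to the Affymetrix Human Gene 2.0 ST array, which gave a log2 value for each of 23786 gene features. The labels name 1 shp300 reagent, without its hairpin sequence or number, and leave unsaid if the 2 arrays per group are of independent cultures. The p-values therefore measure only the spread between arrays of one group, which may be technical. It was estimated from all 8 arrays, WM983B included, and the number of arrays limits the precision.

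EP300 encodes p300, a transcriptional coactivator that acetylates histones and other proteins at enhancers and promoters, and CREBBP encodes CBP, its close relative. Both are recruited by many sequence-specific factors, among them MITF in the melanocyte lineage. The comparison asked which RNAs differ in SK-Mel5 between shp300 and scrambled shRNA. The arrays measure RNA, and the level of p300 protein is not known from them.

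EP300 RNA was at 5.97 and 6.10 on the log2 scale with shp300, against 7.19 and 6.90 with scrambled shRNA. Both shp300 arrays lay below both scrambled arrays, a 2.02-fold difference (log2 change -1.01, SE 0.155, limma adjusted p = 0.00377). CREBBP RNA was at 7.66 and 7.53 with shp300 and at 6.73 and 6.61 with scrambled shRNA. The groups did not overlap, and CREBBP rose 1.90-fold (log2 change 0.92, SE 0.137, adjusted p = 0.00328). Of 11 lysine acetyltransferase genes measured, 3 rose and 2 fell, EP300 and CREBBP among them. Of all features 7.57% rose and 8.8% fell. From the 4 SK-Mel5 arrays alone 2 of these genes were called higher and 2 lower. HAT1, which acetylates newly made histone H4, was at 6.23 and 6.37 with shp300 against 7.95 and 8.08 with scrambled shRNA and fell by 1.71 on the log2 scale. KAT2B, the gene of PCAF, rose by 0.90. KAT7 and KAT8 had changes of -0.16 and -0.09 that did not pass. Among 17 deacetylase and sirtuin genes 2 rose and 1 fell, and of these calls only that of the tubulin and histone deacetylase gene SIRT2 (0.79, adjusted p = 0.0026) held without each array in turn. The counts were 1 higher without scrambled array 2, and 0 lower without scrambled array 1, scrambled array 2 or shp300 array 1.

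Across the genome the shp300 arrays differed from the scrambled ones in 3894 of 23786 features at an adjusted p under 0.05, which is 16.4% of those tested. Of these, 1801 rose (7.57%) and 2093 fell (8.8%). These 2 shares are set beside the counts of the gene lists, with a limit given at the end of this paragraph. The larger changes leaned to the lower side: 283 features rose at least 2-fold (1.19%) and 673 fell at least 2-fold (2.83%). Between 4-fold and 8-fold there were 11 rises and 83 falls, and beyond 8-fold 2 rises and 5 falls. The median change of all features was 0.01 on the log2 scale. These calls use a spread estimated from the arrays of both lines, and from the 4 SK-Mel5 arrays alone 2050 features were called. Arrays of one group correlated at r = 0.992 with shp300 and 0.994 with scrambled shRNA, and arrays of different groups at 0.977 to 0.980 across features, which are not independent replicates. The count of calls was 2143 without scrambled array 1 and 2279 without scrambled array 2, with 840 and 958 rises and 1303 and 1321 falls. Olfactory receptor genes, which melanoma cells mostly do not transcribe, gave a working background: the 95th percentile of their 372 features was 2.53, and 10091 features (42.4%) lay under it in both groups. "Near background" below means a group mean under that level, where the size of a change is uncertain. Calls thinned out toward low levels. With features split by mean level into 5 parts of equal size, 14 rose and 20 fell in the lowest part, against 796 and 798 in the highest. In the highest part 16.73% rose and 16.78% fell, and in the next 13.83% rose and 17.85% fell. Many of the gene lists hold few members near background, so the shares of all features are a low reference for them.

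**Figure D1:**
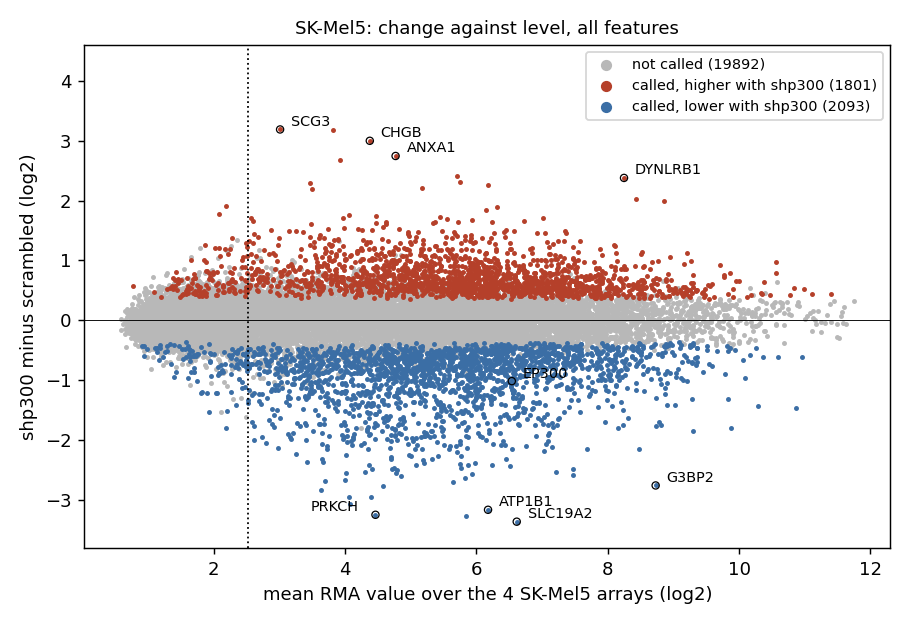
Change against level in SK-Mel5, 1 point per feature: the x axis is the mean RMA value of the 4 arrays (log2), the y axis shp300 minus scrambled (log2), and the dotted line the olfactory receptor level of 2.53. The 1801 called rises are red and the 2093 called falls blue, and more blue than red points lie beyond 2 log2 units.

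Genes of chromosome segregation and cell separation held the densest block of falls. Of 12 mitotic kinesin genes, motors that build the spindle and carry chromosomes, 11 fell (median change -1.73). Of 14 cytokinesis genes 11 fell and 1, the septin gene SEPTIN2, rose (median -1.96). Of 25 kinetochore and centromere genes 20 fell and none rose (median -1.29). Of 19 condensin and cohesin genes 12 fell and 1 rose (median -1.03), and of 14 centrosome and centriole genes 10 fell (median -0.61). The share of all features that fell was the 8.8% above, and their median change 0.01. The calls of the single rises among cytokinesis and cohesin genes were lost without either scrambled array or without shp300 array 2, and for the cohesin gene also without shp300 array 1. The centrosome count was 5 without scrambled array 2. In RNA from whole cultures, fewer dividing cells and less RNA of these genes per cell cannot be told apart.

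DEPDC1, whose product is needed for mitotic progression, was at 2.63 and 2.55 with shp300 and at 5.56 and 5.52 with scrambled shRNA (log2 change -2.95, SE 0.113, adjusted p = 3.59e-05). Its paralogue DEPDC1B was near background with shp300, at 2.29 and 2.15, against 5.03 and 5.05 with scrambled shRNA. Neither gene overlapped between the groups, which was a condition of their choice. KIF20A, the central spindle motor, was at 4.53 and 4.51 with shp300 against 6.44 and 6.46 with scrambled shRNA, and KIF23, the motor of the centralspindlin complex, at 5.35 and 5.50 against 7.26 and 7.34. KIF18B was the mitotic kinesin that did not pass (-0.25, adjusted p = 0.43). At the kinetochore, CENPI averaged 3.51 ± 0.179 with shp300 against 6.04 ± 0.068 with scrambled shRNA (SD, n = 2 arrays each). NDC80, the microtubule-binding subunit, fell by 2.37 and was near background with shp300. The checkpoint kinase gene BUB1 was at 4.45 and 4.59 with shp300 and at 7.02 and 7.25 with scrambled shRNA (log2 change -2.62, SE 0.136). Condensin subunit genes fell by similar amounts, with NCAPG at -2.02, SMC2 at -2.15 and NCAPG2 at -2.07. NEDD1, which brings gamma-tubulin to the centrosome, was at 5.47 on both shp300 arrays and at 7.64 and 7.61 on the scrambled ones. STIL (-1.63) and SASS6 (-1.19), which start new centrioles, also fell.

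Many promoters of such genes carry a cell cycle homology region (CHR) next to CCAAT boxes, words known from the binding of the DREAM and MuvB complexes and of NF-Y. The 4 windows printed here are promoters of genes that fell and hold both words, each the 120 bases before the RefSeq start on GRCh38.p14, 5′ to 3′ on the gene's strand. DEPDC1 lies at chr1:68497083-68497202 (minus strand), KIF20A at chr5:138178992-138179111 (plus), KIF23 at chr15:69414229-69414348 (plus) and ASF1B, a histone chaperone gene, at chr19:14136590-14136709 (minus). Capitals mark the CHR and CCAAT words on either strand.
DEPDC1: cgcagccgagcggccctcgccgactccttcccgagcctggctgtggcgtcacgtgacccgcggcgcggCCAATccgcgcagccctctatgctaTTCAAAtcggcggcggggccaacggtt
KIF20A: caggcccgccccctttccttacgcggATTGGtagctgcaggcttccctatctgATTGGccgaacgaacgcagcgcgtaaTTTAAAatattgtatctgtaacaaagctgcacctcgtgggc
KIF23: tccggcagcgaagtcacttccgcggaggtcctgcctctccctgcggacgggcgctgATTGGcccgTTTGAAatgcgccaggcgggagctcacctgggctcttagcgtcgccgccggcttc
ASF1B: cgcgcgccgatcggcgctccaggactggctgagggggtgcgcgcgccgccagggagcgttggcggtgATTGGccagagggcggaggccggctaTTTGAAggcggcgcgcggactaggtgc

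Words were counted on both strands from 250 bases before to 50 after the start, in the 16338 of 23786 features with a RefSeq promoter, taking the first listed start of a gene. The CHR was searched as TTTGAA or TTTAAA and was present in 19.6% of all promoters. It was present in 47 of 77 promoters of the 5 division lists (61.0%), in 27.3% of the 538 promoters of features called and at least 2-fold lower, and in 20.5% of the 210 called and at least 2-fold higher. The division lists and the lower set share genes. At least 2-fold falls numbered 17 among kinetochore genes, 9 among mitotic kinesins, 9 in cytokinesis, 10 in condensin and cohesin and 5 at the centrosome. The shares of the lower set without these genes were not computed. The CCAAT box, searched as CCAAT, stood in 55.8% of division promoters, 48.7% of the lower and 32.9% of the higher promoters, against 36.2% of all. CHR and CCAAT box occurred together in 37.7% of division promoters, 15.1% of the lower and 8.1% of the higher, against 7.79% of all. For E2F the word TTTCGCGC and the word TTTGGCGC were searched, and also the word TTTCCCGC and the word TTTGCCGC. They were present in 16.9% of division promoters, 10.0% of the lower and 3.81% of the higher, against 4.29% of all. The AP-1 word TGANTCA was in none of the 77 division promoters, in 2.97% of the lower and 3.33% of the higher, against 6.1% of all. The E-box CACGTG was in 9.09%, 9.29% and 7.14% of the same groups, against 8.74% of all. A word match describes a sequence and is not a binding site, and no test was made of these shares.

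**Figure D2:**
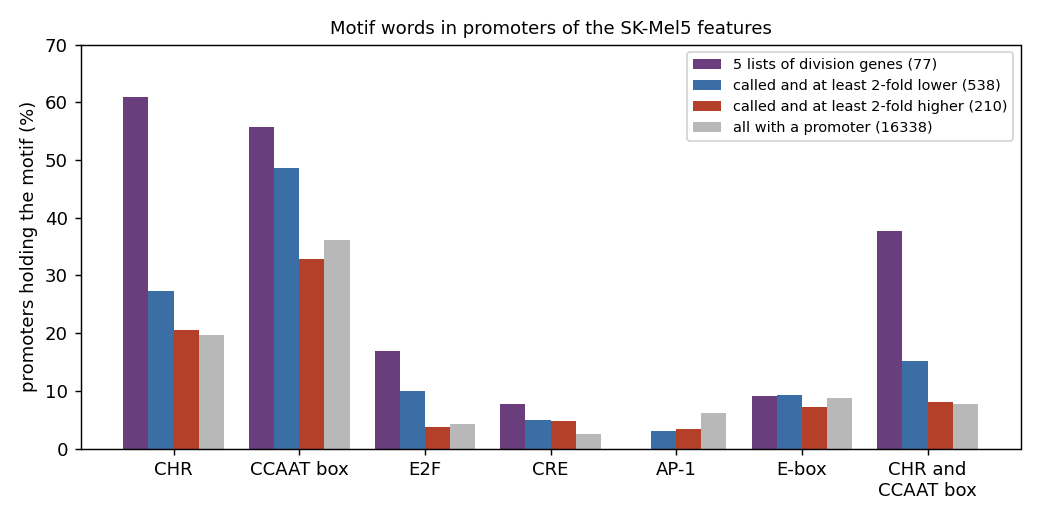
Share of promoters (%) that hold each motif word, for 77 promoters of the 5 division lists, 538 promoters of features called and at least 2-fold lower, 210 called and at least 2-fold higher, and all 16338 promoters. The CHR bar of the division lists stands at 61.0%, against 19.6% of all promoters. The division lists and the lower set share genes.

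Lists of genes that pack and shape chromatin held falls as well, where 8.8% of all features fell. Of 15 histone chaperone and heterochromatin genes 7 fell and none rose. HJURP, which loads the centromeric histone, was at 4.81 and 4.76 with shp300 against 7.13 and 7.21 with scrambled shRNA (log2 change -2.39, SE 0.128). The chaperone genes CHAF1B (-1.14) and ASF1B (-1.55) and the DNA-bending protein gene HMGB2 (-1.65) fell too. Among 61 clustered histone genes 17 fell and 5 rose. H2BC14 was at 6.52 and 6.71 with shp300 and at 8.74 and 8.78 with scrambled shRNA, and H2AC21 at 5.63 on both shp300 arrays against 7.20 and 7.21. Clustered histone genes are near-identical and mostly lack a poly(A) tail, so values of single members are uncertain, and the rises numbered 2 without scrambled array 1 and 3 without any other SK-Mel5 array. Of 12 lamina and envelope genes 4 fell and 1 rose (2 fell without scrambled array 2, and 0 rose without scrambled array 1, shp300 array 1 or shp300 array 2). The median change of the lamina and envelope list was 0.15, above 0. From the 4 SK-Mel5 arrays alone 2 of its genes were called lower. LMNB1, a B-type lamin of the inner nuclear membrane, was at 4.13 and 4.38 with shp300 against 5.79 and 5.82 with scrambled shRNA. TMPO, which anchors chromatin to the lamina, fell by 1.54. Nucleotide and one-carbon synthesis genes fell in 9 of 21, with TK1 at -1.99, RRM2 at -1.62, TYMS at -0.94 and RRM1 at -0.90. That count was 5 without scrambled array 1 or shp300 array 2.

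Polycomb and DNA methylation genes split, where 7.57% of all features rose and 8.8% fell. Of 17 measured, 6 fell and 2 rose, and the falls numbered 3 without scrambled array 2. HELLS, a remodeller needed for DNA methylation, was near background with shp300, at 1.89 and 2.39, against 4.32 and 4.42 with scrambled shRNA. EZH2, the H3K27 methyltransferase, was at 4.38 and 4.54 with shp300 and at 5.47 and 5.41 with scrambled shRNA (log2 change -0.98, adjusted p = 0.00236). RBBP7 fell by 0.95. The de novo methyltransferase gene DNMT3A was at 4.67 and 4.64 with shp300 against 3.93 and 4.10 with scrambled shRNA and rose by 0.64. Of 16 SWI/SNF and BET genes 4 rose and 1 fell. The fall was PBRM1 (-0.97), a subunit of the PBAF complex. The rises were not stable, with 1 left without scrambled array 1 and 0 without any other SK-Mel5 array.

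The 20 largest rises were led by proteins of regulated secretion. SCG3, a granin that sorts cargo into dense-core vesicles, was at 4.65 and 4.56 with shp300, against 1.36 and 1.48 with scrambled shRNA, where it was near background. SCG2 was at 5.37 and 5.43 with shp300 and, near background, at 2.06 and 2.38 with scrambled shRNA. CHGB was at 6.12 and 5.63 with shp300 and at 3.29 and 2.47 with scrambled shRNA, and CHGA at 5.05 and 4.96 against 3.24 and 3.77. For SCG3, SCG2 and CHGB the lack of overlap between the groups was a condition of choice. All 4 genes, CHGA included, were called higher. They were the 4 of 11 granin and prohormone processing genes that rose, and none fell (1 fell without shp300 array 2). Among all features 7.57% rose and 8.8% fell. Of the processing genes, CPE changed by 0.37 and PAM by 0.21, and neither passed. The granin gene VGF did not pass either (0.35, adjusted p = 0.13). FURIN, a proprotein convertase of the general secretory route, was at 7.09 and 7.03 with shp300 against 5.22 and 5.21 with scrambled shRNA and rose 3.59-fold.

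Genes of synaptic vesicle release moved in part. Of 19 measured, 5 rose and 1 fell, where 7.57% of all features rose and 8.8% fell. UNC13A, which primes vesicles for fusion, was at 5.24 and 5.28 with shp300 against 2.76 and 2.42 with scrambled shRNA (log2 change 2.67, SE 0.163, adjusted p = 8.27e-05). SYN1, which tethers vesicles, was at 4.68 and 4.52 with shp300 and near background, at 2.28 and 2.53, with scrambled shRNA. Neither gene overlapped between groups, again a condition of their choice. UNC13B rose by 0.72, and the vesicle glycoprotein gene SV2A fell by 1.07. The falls numbered 2 without shp300 array 1. AP3B2, the neuronal subunit of the AP-3 adaptor, was at 5.18 and 4.70 with shp300 against 3.26 and 3.10 with scrambled shRNA. The full cAMP response element TGACGTCA, present in 2.56% of all promoters, stands in the SYN1 promoter. It is shown because this riser is known from neurons, where CREB and p300 or CBP meet on such elements. The window, chrX:47619977-47620057 on the minus strand of GRCh38.p14 (RefSeq), runs from 200 to 120 bases before the start, with the element in capitals.
SYN1: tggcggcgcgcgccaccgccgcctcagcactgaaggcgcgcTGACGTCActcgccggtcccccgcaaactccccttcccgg

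The element was present in 4.76% of promoters of features called and at least 2-fold higher, in 5.02% of those at least 2-fold lower and in 7.79% of division promoters. Among the single genes examined it also stood in the promoters of CHGA, which rose, and of NDC80, KIF15, NEDD1 and H2BC14, which fell. SYN1 is thus 1 example, and a part of the element in its rise was not tested. Of 15 genes of the neuronal cytoskeleton and of REST, 2 rose and 2 fell, where 7.57% of all features rose and 8.8% fell. MAPRE3, a microtubule plus-end protein, was at 7.34 and 7.28 with shp300 against 5.13 and 4.97 with scrambled shRNA, and STMN3 rose by 1.08. REST, the repressor of neuronal genes outside neurons, was at 4.93 and 4.89 with shp300 against 5.66 and 5.49 with scrambled shRNA (log2 change -0.67, adjusted p = 0.0196). Its call was lost without each of the 4 arrays (adjusted p = 0.0536 to 0.118), as was the second fall, MAP1B. BEX1, a small protein of neurons, was at 3.66 and 2.63 with shp300 and near background, at 1.53 and 0.95, with scrambled shRNA.

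**Figure D3:**
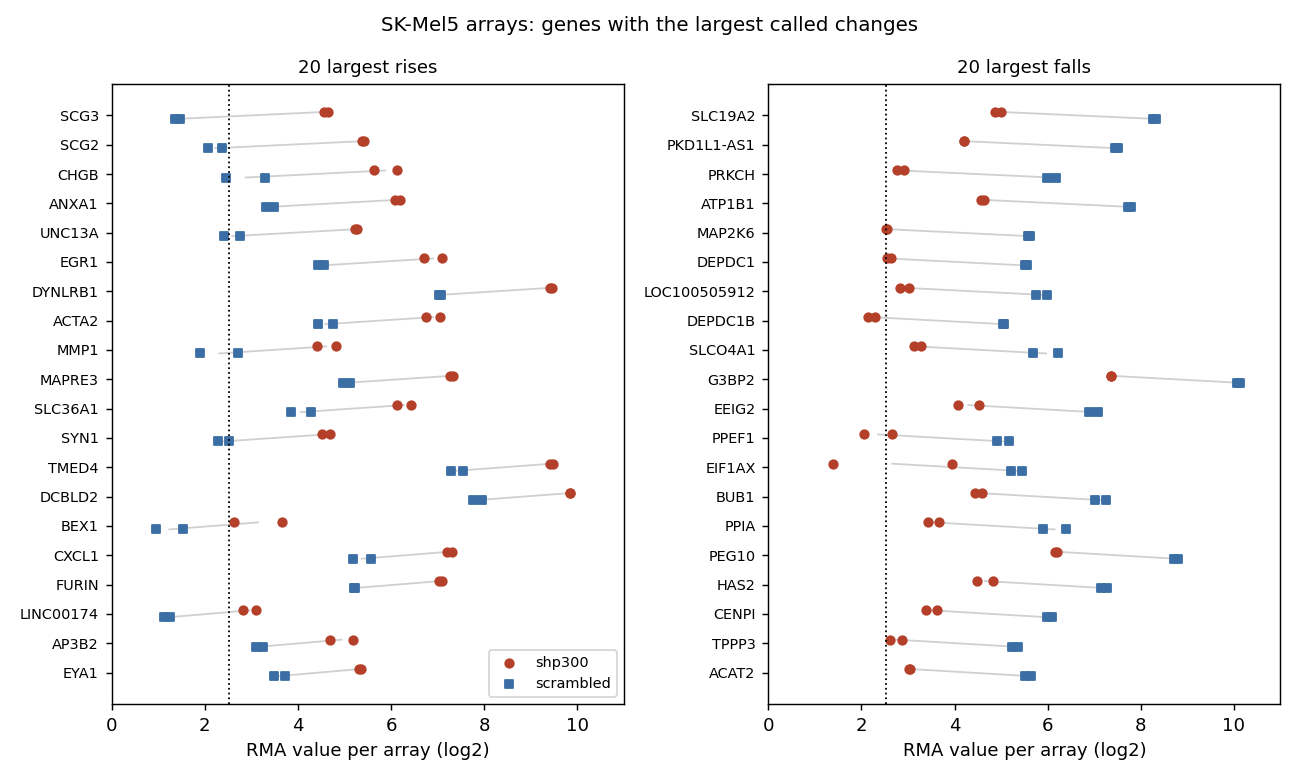
RMA values (log2) of single SK-Mel5 arrays for the 20 largest called rises and the 20 largest called falls, shp300 arrays as circles and scrambled arrays as squares, with grey lines joining group means. The dotted line is the olfactory receptor level of 2.53. The 40 genes were chosen among those without overlap between the groups, so their separation follows from that choice.

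Of the other large rises, several concern the cell surface, the matrix and the cytoskeleton. Beside the family counts here, 7.57% of all features rose and 8.8% fell. ANXA1, a calcium-dependent membrane-binding protein, was at 6.19 and 6.10 with shp300 and at 3.49 and 3.31 with scrambled shRNA, a 6.69-fold rise (SE 0.12 on the log2 scale). In its family 2 of 11 rose and 3 fell (1 rose without scrambled array 2, and 0 fell without scrambled array 1, scrambled array 2 or shp300 array 2). MMP1, the interstitial collagenase, was at 4.82 and 4.40 with shp300 and near background, at 1.90 and 2.72, with scrambled shRNA. Of 17 metalloproteinase and TIMP genes 5 rose and 2 fell. The rises were 2 without scrambled array 1 and 3 without any other SK-Mel5 array, and the falls 0 without scrambled array 1, scrambled array 2 or shp300 array 2 and 1 without shp300 array 1. ACTA2, smooth muscle actin, was at 7.06 and 6.75 with shp300 against 4.43 and 4.76 with scrambled shRNA. Among 16 smooth muscle actin and SRF target genes it was the sole rise (2 without shp300 array 2), and the myosin kinase gene MYLK fell by 1.03. DCBLD2, a transmembrane protein, was at 9.85 and 9.84 with shp300 against 7.76 and 7.95 with scrambled shRNA.

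Integrin genes, receptors for the extracellular matrix, rose in 8 of 18 and fell in 1, where 7.57% of all features rose and 8.8% fell. The rises numbered 5 without either scrambled array. ITGB1, the shared beta subunit, was at 7.71 and 7.73 with shp300 against 6.60 and 6.39 with scrambled shRNA (log2 change 1.22, SE 0.122, adjusted p = 0.000544). Its partners ITGA9, ITGA1 and ITGA5 rose by 1.33, 1.09 and 1.04, while ITGAV changed by 0.04 and ITGB5 by -0.19 without passing. Collagen and laminin genes gave 3 rises among 53 (0 without scrambled array 2 and 5 without shp300 array 2). The collagen and laminin share that rose, 5.66%, was below the 7.57% of all features. HAS2, which makes hyaluronan, fell and was at 4.82 and 4.49 with shp300 against 7.15 and 7.27 with scrambled shRNA.

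DYNLRB1, a light chain of the dynein motor, was at 9.45 and 9.42 with shp300 against 7.08 and 7.04 with scrambled shRNA. Its rise was 5.19-fold (SE 0.103 on the log2 scale, adjusted p = 4.45e-05). Other dynein and dynactin genes moved less and in both directions: 5 of 20 rose and 3 fell, with DCTN2 at 0.66, DCTN5 at -1.07 and DYNC1LI2 at -0.79. The rises numbered 3 without scrambled array 1 and 2 without scrambled array 2. TMED4, a cargo receptor of the early secretory pathway, was at 9.47 and 9.41 with shp300 against 7.29 and 7.54 with scrambled shRNA. SLC36A1, an amino acid transporter of lysosomes, was at 6.42 and 6.13 against 3.84 and 4.28. EGR1, an immediate early transcription factor, was at 7.10 and 6.71 with shp300 and at 4.55 and 4.43 with scrambled shRNA. EYA1, a phosphatase and coactivator of organ development, was at 5.32 and 5.37 with shp300 against 3.48 and 3.73 with scrambled shRNA. CXCL1, a neutrophil chemokine, was at 7.21 and 7.31 against 5.18 and 5.56. Of 35 chemokine genes 4 rose and none fell, where 7.57% of all features rose and 8.8% fell. From the 4 SK-Mel5 arrays alone 2 chemokine genes were called higher, and 25 of the 35 lay near background in both groups. LINC00174, a long non-coding RNA, was near background with scrambled shRNA, at 1.25 and 1.13, and at 2.81 and 3.11 with shp300. The next rise after these 20 was BSDC1, at 1.73.

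The 20 largest falls held transporters, kinases and metabolic enzymes beside the division genes. SLC19A2, which carries thiamine (vitamin B1) into cells, was at 4.87 and 5.01 with shp300 against 8.32 and 8.26 with scrambled shRNA, and this 10.2-fold fall was the largest of all features (SE 0.111 on the log2 scale, adjusted p = 1.67e-05). Of 7 thiamine and folate carriers 3 fell and 1 rose, where 8.8% of all features fell and 7.57% rose. SLC25A32, the mitochondrial folate carrier, was at 5.49 and 5.14 with shp300 against 6.97 and 7.07. The rise lost its call without any 1 SK-Mel5 array. ATP1B1, the beta subunit that brings the sodium pump to the membrane, was at 4.63 and 4.56 with shp300 and at 7.78 and 7.73 with scrambled shRNA. ATP1B2 fell by 0.97, and the third subunit gene measured, ATP1B3, changed by -0.17 and did not pass. SLCO4A1, an organic anion transporter, was at 3.12 and 3.28 with shp300 against 5.69 and 6.23 with scrambled shRNA.

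Among signalling enzymes, PRKCH, a calcium-independent protein kinase C, was at 2.77 and 2.91 with shp300 against 6.18 and 5.99 with scrambled shRNA. In the protein kinase C group 2 of 11 fell and 1 rose, where 8.8% of all features fell and 7.57% rose. PRKCE changed by -0.99 and PRKD3 by 0.70. MAP2K6, a kinase that activates p38, was at 2.54 and 2.55 with shp300 and at 5.63 and 5.58 with scrambled shRNA. MAP2K3, which activates the same kinase, moved the opposite way, at 6.51 and 6.68 with shp300 against 5.29 and 5.31 with scrambled shRNA (log2 change 1.30, SE 0.135). These were the only fall and the largest rise of 16 p38 and JNK pathway genes, of which 3 rose in all (1 without shp300 array 1, when 2 fell). PPEF1, a calcium-binding phosphatase, was at 2.65 and 2.06 with shp300, near background, against 5.16 and 4.91.

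Other large falls concerned RNA-binding, folding and metabolism. G3BP2, a stress granule protein, was at 7.35 and 7.36 with shp300 against 10.14 and 10.07 with scrambled shRNA, a 6.74-fold fall. Of 15 stress granule genes 2 fell and 2 rose, where 8.8% of all features fell and 7.57% rose. Both rises were lost without any 1 SK-Mel5 array, and the falls numbered 1 without scrambled array 1 or shp300 array 2. PPIA, cyclophilin A, was at 3.42 and 3.68 with shp300 and at 6.40 and 5.90 with scrambled shRNA. PEG10, an imprinted gene derived from a retrotransposon, was at 6.20 and 6.16 against 8.72 and 8.79. ACAT2, which makes acetoacetyl-CoA for the mevalonate pathway, was at 3.03 and 3.05 with shp300 against 5.51 and 5.64 with scrambled shRNA. TPPP3, a tubulin-binding protein, was at 2.88 and 2.62 against 5.23 and 5.35, and EEIG2 at 4.53 and 4.06 against 7.08 and 6.89. The non-coding PKD1L1-AS1 was at 4.20 and 4.21 with shp300 and at 7.44 and 7.50 with scrambled shRNA, and LOC100505912 at 3.02 and 2.83 against 5.99 and 5.74. EIF1AX, an initiation factor, was the least stable of the 20. It was at 3.94 and 1.39 with shp300 against 5.21 and 5.46 with scrambled shRNA (log2 change -2.67, adjusted p = 0.0296). Its change was -3.95 without shp300 array 1 and -1.39 without shp300 array 2, and its adjusted p was 0.104 without scrambled array 1 and 0.13 without scrambled array 2. It was 0.0549 to 0.0563 without single WM983B arrays, which share the estimate of the spread. PPIA, EIF1AX and ACTA2 have close relatives or processed pseudogenes in the genome, and the sources used here do not give how shared probes were assigned, so their values are uncertain. The next fall after these 20 was CHAC1, at -2.53.

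Genes of amino acid supply and redox balance held more falls than rises, where 8.8% of all features fell and 7.57% rose. Of 21 ATF4 and amino acid response genes 8 fell and 1 rose. CHAC1, which degrades glutathione, was at 5.94 on both shp300 arrays against 8.97 and 7.98 on the scrambled ones. PHGDH and PSAT1, the first steps of serine synthesis, fell by 1.74 and 1.80, and for both genes scrambled array 1 lay above scrambled array 2, at 8.20 and 7.58 for PHGDH and at 9.49 and 8.61 for PSAT1. PSPH, the last step, changed by -0.04 and did not pass. The 1 rise lost its call without scrambled array 1, scrambled array 2 or shp300 array 2. Of 15 NRF2 and glutathione genes 6 fell and 1 rose, and the falls numbered 3 without scrambled array 2 or shp300 array 1. The cystine transporter gene SLC7A11 fell by 1.40 and NQO1 by 0.76. HMOX1, which degrades heme, was at 9.29 and 9.23 with shp300 against 8.14 and 8.41 with scrambled shRNA and rose by 0.99.

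Of 17 circadian clock genes 8 fell and none rose (median -0.46), with 5 falls without scrambled array 2 or shp300 array 2. Among all features 8.8% fell and 7.57% rose. DBP, a clock output factor, was at 5.30 and 5.22 with shp300 against 7.12 and 7.15 with scrambled shRNA. PER3 fell by 1.84, CLOCK by 1.13 and CRY1 by 0.88, while BMAL1 (-0.07) and CRY2 (-0.08) did not pass. The labels used here give no time of harvest, and its part in these values was not tested.

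Receptor and developmental signalling genes were called in both directions, where 16.4% of all features were called. Of 24 receptor tyrosine kinase genes 4 fell and 1 rose, with 2 falls without scrambled array 1 or shp300 array 2. FGFR1 was at 4.92 and 4.53 with shp300 against 6.11 and 6.12 with scrambled shRNA, and the collagen receptor gene DDR1 at 6.30 and 6.05 against 5.08 and 5.16. Of 21 NOTCH pathway genes 4 rose and 3 fell, and 2 rose without scrambled array 1, scrambled array 2 or shp300 array 1. HES1, the classical NOTCH target, rose by 0.91 and the coactivator gene MAML1 by 1.00, whereas HES6, which opposes HES1, fell by 1.43 and NOTCH3 by 0.71. In the WNT list 3 of 24 rose and 4 fell. The transcription factor gene LEF1 was at 5.42 and 5.40 with shp300 and at 6.38 and 6.25 with scrambled shRNA (log2 change -0.90, adjusted p = 0.00157). The rises were 1 without shp300 array 1 or either scrambled array, and the falls 2 without scrambled array 1 or shp300 array 2 and 1 without scrambled array 2.

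**Figure D4:**
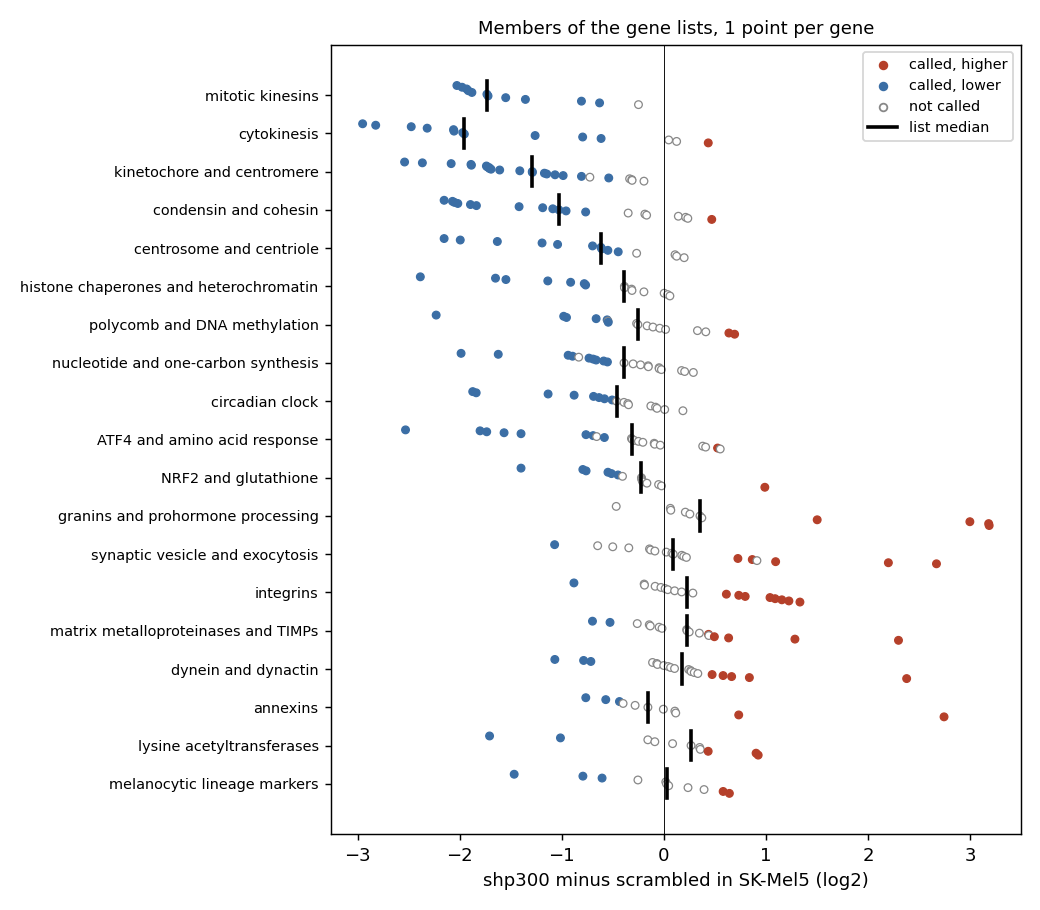
Log2 change (shp300 minus scrambled) of each member of 19 gene lists, 1 point per gene, with filled points for called members and bars for list medians. Mitotic kinesins have a median of -1.73 and 11 of 12 members called lower, and 4 of 11 granin and prohormone genes are called higher.

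The label of the cells was checked against lineage markers. All 11 melanocytic markers measured lay above the olfactory receptor level, with PMEL at a mean of 11.2 with shp300 and 11.1 with scrambled shRNA and SOX10 at 7.81 and 7.78. Of these, 2 rose and 3 fell, where 7.57% of all features rose and 8.8% fell. MLANA, a melanosome protein, was at 9.97 and 10.30 with shp300 and at 11.66 and 11.55 with scrambled shRNA, whereas TYR, the first enzyme of melanin synthesis, was at 10.69 and 10.70 against 10.05 and 10.06. The second rise, EDNRB, lost its call without scrambled array 2 or shp300 array 2. The summed linear level of the 11 markers was 7875 to 8406 with shp300 and 10220 to 10420 with scrambled shRNA. Most markers of other cells were near background in both groups: 9 of 11 for leukocytes, PTPRC among them, 6 of 10 for fibroblasts, 6 of 9 for endothelium, 6 of 8 for keratinocytes and 5 of 8 for HEK293T, a line used to package lentivirus. Their summed levels were 266 to 294 with shp300 against 819 to 884 with scrambled shRNA for leukocytes, and 481 to 504 against 774 to 785 for fibroblasts. The sums for HEK293T markers were 671 to 695 with shp300 against 758 to 774, for endothelium 44.8 to 48.0 against 43.4 to 43.5, and for keratinocytes 31.2 to 35.1 against 30.3 to 33.6. The leukocyte sum turned on CD68, a lysosomal protein, at 8.04 and 7.84 with shp300 against 9.62 and 9.74 with scrambled shRNA, and the fibroblast sum on the proteoglycan gene LUM (-0.88), while DCN, another proteoglycan, rose by 1.33. The part of other cells in the results was not tested.

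SK-Mel5 was set against WM983B for the 42 genes made up of EP300, CREBBP and the 20 largest rises and falls, by testing the difference of the 2 changes in the same model. Over all features this difference was called for 9.46%. It was called for 27 of the 42, which were chosen for their size in SK-Mel5, so larger changes there than in WM983B follow in part from that choice and the count is given as a description. EP300 itself changed by -1.01 in SK-Mel5 and by -0.07 in WM983B (difference -0.95, SE 0.219, adjusted p = 0.0357). That call was lost without each of 6 of the 8 arrays (adjusted p = 0.0672 to 0.119) and held without WM983B shp300 array 1 or SK-Mel5 scrambled array 2. The EP300 change within WM983B did not pass the test (adjusted p = 0.832), so the WM983B arrays are described only as those labelled shp300, and each comparison with them rests on that label. CREBBP changed by 0.92 in SK-Mel5 and 0.69 in WM983B, a difference of 0.23 (SE 0.194, adjusted p = 0.547). DYNLRB1 changed by 2.38 in SK-Mel5 and by -0.02 in WM983B, and PEG10 by -2.58 and -0.02. ATP1B1 changed by -3.16 in SK-Mel5 against -0.16 in WM983B, and LOC100505912 by -2.94 against 0.17. Other genes changed in both lines: SCG3 by 3.19 in SK-Mel5 and 3.01 in WM983B, G3BP2 by -2.75 and -2.29, and HAS2 by -2.56 and -2.66. Their differences did not pass, which does not show equal changes. The difference for SCG3 was 0.17 (SE 0.15), for G3BP2 -0.47 (SE 0.166) and for HAS2 0.10 (SE 0.233).

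**Figure D5:**
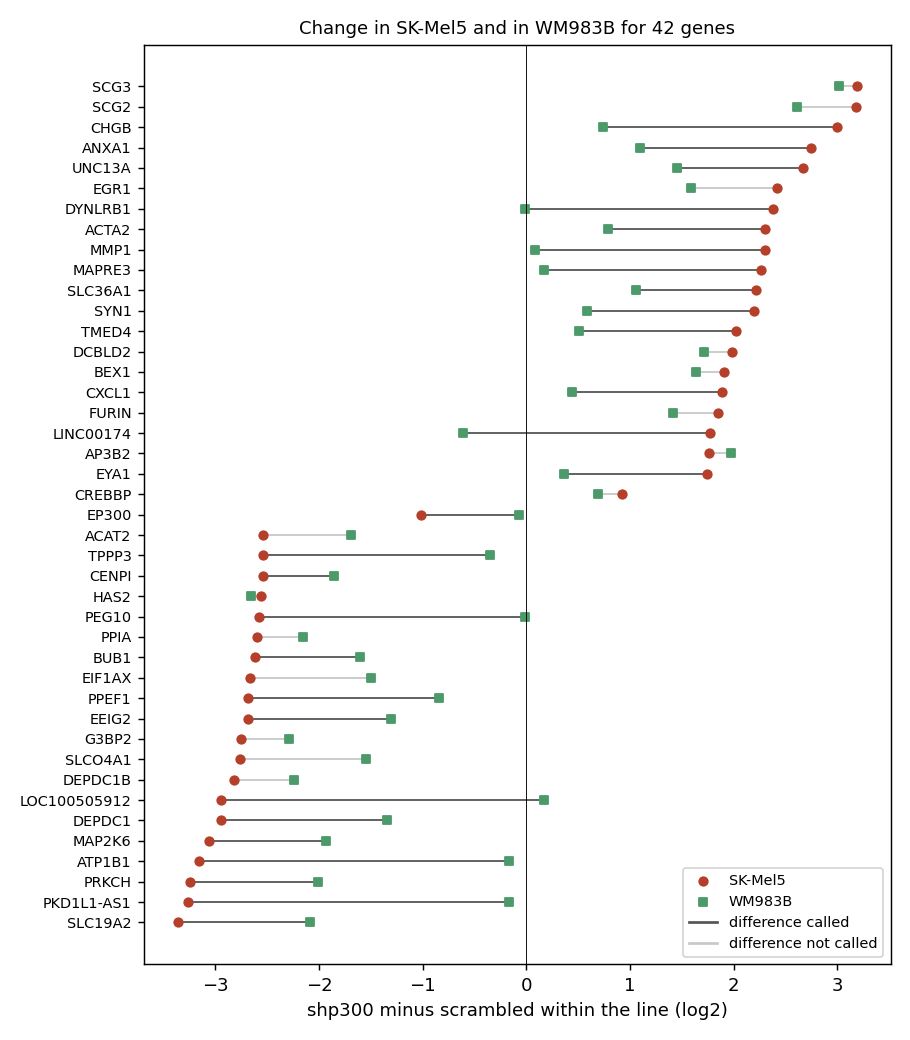
Change within each line (shp300 minus scrambled, log2) for 42 genes, SK-Mel5 as circles and WM983B as squares, joined by a dark line where the difference of the changes was called (27 genes). EP300 is at -1.01 in SK-Mel5 and -0.07 in WM983B.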

How the data were processed

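RNA was measured on 8 arrays, of which 4 are SK-Mel5. The authors deposited log2 values per gene feature, made by RMA with affy 1.36.1 in R 2.15.1, per the submitters' processing notes. The mapping of probes is not given in the sources. Array medians were 2.96 to 3.01 in SK-Mel5 and 4.26 to 4.28 in WM983B, so levels were not compared across lines. No column was left out (0 unused) and no feature was filtered. Of 23786 features, 22458 had 1 symbol and 1328 had none.

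limma 3.58.1 in R 4.3.3 fitted a model of 4 groups to all 8 arrays. The contrast was SK-Mel5 shp300 minus scrambled, two-sided, with Benjamini-Hochberg adjustment over all features and calls at an adjusted p under 0.05. "Rose" and "fell" refer to called features. The difference from WM983B was a contrast of the same model. Lists were described by counts and medians, with no test. The text names EP300, CREBBP, 20 rises and 20 falls (the largest called changes with 1 symbol and no overlap between groups), and up to 4 members per list with the smallest p. Other members, such as those that did not pass, the next change after each set of 20 and genes of marker lists, were named after their values were seen. CENPI, 1 of the 20 falls, is given in the text as group means, and its single-array values are only plotted. Members and lists were chosen with earlier results of these data known. The fit was also run on simulated data with independent noise, which cannot show if the arrays of a group are independent.

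Same-numbered arrays deviated from their group means with correlations of 0.028 in SK-Mel5 and 0.003 in WM983B, so the numbers were not taken as pairs. Alternatives were the 4 SK-Mel5 arrays alone, the replicate number as a block, 2 filters on low features, centring, quantile normalization within each line, array weights, eBayes with trend and robust, at least 1.5-fold, an adjusted p under 0.1, and leaving out each array, when a lone array is assumed to vary like the other groups. Promoters are RefSeq's (GRCh38.p14).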

Additional observations from a re-analysis of the deposited data

Results flagged for a closer look

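For 27 genes the change in SK-Mel5 differed from the change in WM983B, by a test of the difference in one model (limma adjusted p under 0.05 over all features). All values are the SK-Mel5 change minus the WM983B change on the log2 scale. All but EP300 were chosen for their size in SK-Mel5.

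Differences below 0 were measured for EP300 (-0.95), for the division genes DEPDC1 (-1.60), BUB1 (-1.02) and CENPI (-0.68), for the transporter and pump genes SLC19A2 (-1.27) and ATP1B1 (-2.99), and for the signalling genes PRKCH (-1.23), MAP2K6 (-1.13) and PPEF1 (-1.84). PEG10 had -2.56, TPPP3 -2.19 and EEIG2 -1.38. The non-coding LOC100505912 had -3.12 and PKD1L1-AS1 -3.10.

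Differences above 0 were measured for the secretion and vesicle genes CHGB (2.25), UNC13A (1.22), SYN1 (1.62) and TMED4 (1.51), for the cytoskeletal genes DYNLRB1 (2.40), MAPRE3 (2.09) and ACTA2 (1.52), and for MMP1 (2.21), ANXA1 (1.64) and CXCL1 (1.45). EYA1 had 1.38, SLC36A1 1.16 and LINC00174 2.38. The calls of 18 genes held without each of the 8 arrays. Those of EP300, BUB1, CENPI, CHGB, EEIG2, MAP2K6, PRKCH, SLC36A1 and UNC13A were lost without at least 1, with EEIG2 lost only without WM983B scrambled array 2 (adjusted p = 0.0528) and CENPI without 7 of the 8 (adjusted p = 0.102 to 0.158).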

How the results depend on the processing

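SK-Mel5 calls numbered 3894, of which 1801 were higher and 2093 lower. From the 4 SK-Mel5 arrays alone they numbered 2050 (811 higher, 1239 lower), and 2028 of these were among the 3894. With a minimum of 1.5-fold 1114 were higher. Leaving out single SK-Mel5 arrays gave 2143 to 3049 calls, with 840 to 1259 higher and 1303 to 1790 lower. Leaving out single WM983B arrays, chosen after seeing the data, gave 3281 to 3648 calls, with 1439 to 1640 higher and 1842 to 2008 lower. Calls of at least 2-fold, 956, stayed within 852 and 1052 over all alternatives. EP300 and CREBBP kept direction and call in each alternative fit, those without a WM983B array included, with EP300 between -1.16 and -0.87 without single SK-Mel5 arrays. Of the 42 genes, 41 kept their call without each SK-Mel5 array (the exception was EIF1AX), and 40 were called from the 4 SK-Mel5 arrays alone, where BEX1 had an adjusted p of 0.0709 and EIF1AX 0.163. No result changed direction. With the replicate number as a block, which the correlations of same-numbered arrays give no ground for, 3161 features were called, 958 of them at least 2-fold, and EP300 had an adjusted p of 0.0114 and CREBBP 0.0116. The difference from WM983B was then called for 21 genes in place of 27, and for 20 to 23 without single arrays. The causes were not tested. Values near the olfactory receptor level limit the size and rank of changes: 38 of the 283 rises and 65 of the 673 falls of at least 2-fold had their lower group there.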

Other observations

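Gene families outside the lists above were also counted, where 7.57% of all features rose and 8.8% fell. In the highest of the 5 parts by level 16.73% rose and 16.78% fell. Among families not described further, 3 of 34 proteasome genes rose and 4 fell, and 32 of 508 zinc finger genes rose and 19 fell. Of 76 mitochondrial ribosomal protein genes 10 fell and 3 rose, and the rises numbered 0 without scrambled array 1, scrambled array 2 or shp300 array 2. MRPL47, of the large subunit, was at 5.34 on both shp300 arrays against 6.79 and 6.81 on the scrambled ones, and MRPS10, of the small subunit, fell by 1.20. Of 22 nucleoporin genes 8 fell and none rose, with 3 falls without scrambled array 2 and 4 without any other SK-Mel5 array. NUP58, a protein of the central channel, was at 6.97 and 6.66 with shp300 against 8.29 and 8.40 with scrambled shRNA. Of 29 HOX genes, which set position along the body axis, 7 rose and 1 fell, and 3 rose without scrambled array 1. HOXC6 was at 5.51 and 5.57 with shp300 against 4.45 and 4.42 with scrambled shRNA, and HOXD1, the fall, at 5.78 and 5.75 against 6.80 and 6.51. TRIM63, a muscle ubiquitin ligase, was at 5.24 and 5.34 with shp300 against 7.57 and 7.65 with scrambled shRNA. RAB18, a small GTPase of lipid droplets and the endoplasmic reticulum, was at 4.15 and 3.88 against 5.76 and 5.58. The cytokine gene IL6 was at 7.26 and 7.36 with shp300 against 5.64 and 6.01 with scrambled shRNA and rose by 1.49. Families of these 3 genes were called in both directions. In the TRIM family 7 of 62 rose and 6 fell, and in the RAB family 9 of 60 rose and 7 fell. Among interleukin and receptor genes 7 of 84 rose and 4 fell. TRIM13 rose by 0.93 and RAB4A by 0.62, while IL17RD fell by 1.13 and IL6ST by 0.65.

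Long non-coding RNA and microRNA features mostly lay near background in both groups. Among all features 7.57% rose and 8.8% fell, and 42.4% were near background in both groups. Of 2253 long non-coding RNA features 75 rose and 42 fell, and 1675 were near background. Of 1097 microRNA features, which measure precursors, 24 rose and 12 fell, and 834 were near background. Of 315 small nucleolar RNA features 24 rose and 8 fell, against 1612 and 1996 of 18255 protein-coding features. The guide of RNA modification SCARNA7 was at 5.63 and 5.86 with shp300 against 4.39 and 4.73 with scrambled shRNA, and SNORD91B at 5.69 and 5.42 against 6.87 and 6.89. The difference in these shares was not tested.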
